A study of Mus musculus with 9 samples.

Results

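The BMP ligands, receptors, receptor SMADs and a target gene of the pathway were examined in mouse ovaries at postnatal day (PD) 14, 15 and 16. The 10 genes were found by their symbols in the expression tables: the ligands *Bmp2*, *Bmp4*, *Bmp6* and *Bmp7*, the receptors *Bmpr1a*, *Bmpr1b* and *Bmpr2*, the signal carriers *Smad1* and *Smad5*, and the target *Id1*. They are 10 of the 52025 genes listed, each symbol matched 1 row, and all 10 passed the filter, which asked that the mean FPKM of some day exceed 1 and kept 15495 genes in all. FPKM is the number of sequenced fragments scaled by transcript length and by library depth, so that levels of different genes can be set side by side. The study followed the days on which the first fluid-filled cavities, the antra, appear in the follicles of juvenile mice.

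BMP ligands are secreted dimers of the transforming growth factor beta family. A ligand brings type I receptors, such as BMPR1A and BMPR1B, together with a type II receptor, such as BMPR2, which switches on the type I kinases. These phosphorylate SMAD1 and SMAD5, which enter the nucleus with SMAD4 and raise transcription of targets such as *Id1*. In the ovary, BMPs pass between the oocyte, the granulosa cells around it and the theca cells outside the follicle, and they are known for shaping the response of granulosa cells to follicle-stimulating hormone.

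The samples were 9 libraries of total RNA from Kunming mice, 3 each at PD14, PD15 and PD16, with no treatment or genetic change named for any day. PD14 was the reference, and the days differ in age alone as far as the labels say. In the labels, ovary is the tissue while granulosa cells are named as the source. The study describes collected ovaries, and transcripts of other ovarian cells were present in every library. The granulosa markers *Foxl2* (128 to 183 FPKM) and *Fshr* (11.6 to 21.2 FPKM) stood beside the egg coat genes *Zp3* (263 to 416 FPKM) and *Zp2* (171 to 292 FPKM) and the steroid enzymes *Cyp17a1* (19.9 to 46.5 FPKM) and *Cyp11a1* (16.8 to 50.8 FPKM) of theca and interstitial cells. *Col1a1* (77.3 to 111 FPKM) and *Dcn* (35.0 to 65.5 FPKM) of stroma, *Pecam1* (10.3 to 12.7 FPKM) and *Cdh5* (23.1 to 28.5 FPKM) of vessels, and *Myh11* (29.2 to 43.7 FPKM) and *Acta2* (222 to 344 FPKM) of smooth muscle were also present. *Krt19* (7.11 to 11.4 FPKM) and *Krt18* (6.86 to 10.8 FPKM) of the surface epithelium and *Hba-a1* (29.8 to 101 FPKM) and *Hbb-bs* (13.5 to 36.3 FPKM) of blood were detected in every library. The oviduct genes *Ovgp1* (0.153 to 0.779 FPKM) and *Foxj1* (0.128 to 0.552 FPKM) stayed under 1 FPKM. The libraries were therefore read as ovary, and in such bulk samples fewer cells of a type and less RNA per cell cannot be told apart.

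Depth was similar on the 3 days. The libraries held 20369006 to 28730960 mapped fragments by the size of the single-fragment step in the low values, and 14590 to 14923 genes were above 1 FPKM. Where whole fragments were recovered, the fragments behind a library's value ran from 486 for *Bmp2* to 13624 for *Bmpr2*. For *Bmp4* and *Bmp6* whole fragments were not recovered, and the estimate for *Bmp4* went down to 281. PD16 replicate 1 stood apart among the 10 genes, with the highest value of all libraries for *Bmpr1a*, *Bmpr1b* and *Bmpr2* and the lowest for *Bmp4*, *Bmp7*, *Smad1* and *Smad5*. Differences of PD16 from PD14 for these 7 genes are given with and without it.

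The type II receptor gene *Bmpr2* and the type I receptor gene *Bmpr1b* rose at PD16. The mean FPKM of *Bmpr2* was 48.3% higher on PD16 than on PD14 and that of *Bmpr1b* 41.5% higher, whereas the PD14 and PD15 libraries of both overlapped. These were the only 2 of the 10 genes with an adjusted p under 0.05 between PD16 and PD14, against 4.25% of all genes tested (limma over all 15495 genes, with Benjamini-Hochberg adjustment here and throughout). Both were higher, as were 2.36% of all genes by this rule, and 4 of the 10 (*Bmp4*, *Bmpr1b*, *Bmpr2* and *Id1*) were under an unadjusted p of 0.05, against 22.8% of all genes. Between PD16 and PD15 the test called 1 of the 10, *Bmpr2*, as higher, against 0.729% of all genes in either direction, 0.432% higher and 0.297% lower, and 4 of the 10 (*Bmp2*, *Bmp7*, *Bmpr1b* and *Bmpr2*) were under an unadjusted p of 0.05, against 14.1% of all genes. Between PD15 and PD14 it called 0 of the 10, against 0.678% of all genes, and 1 of the 10, *Id1*, was under an unadjusted p of 0.05, against 14.7% of all genes. All comparisons share libraries, since PD14 and PD16 each enter more than 1 of them. The libraries are 3 ovaries a day in the study's description, and the labels do not tie them to single mice, so that the p-values measure the spread between these samples.

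Ranges of the libraries were also compared without a model. Between PD14 and PD16, 7 of the 10 genes had libraries that did not overlap, 5 higher (*Bmp6*, *Bmpr1a*, *Bmpr1b*, *Bmpr2* and *Id1*) and 2 lower (*Bmp4* and *Smad5*), against 28.5% of all genes, 15.0% higher and 13.5% lower. Between PD15 and PD16 there were 3, all higher (*Bmp6*, *Bmpr1b* and *Bmpr2*), against 19.6% of all genes, 9.85% higher and 9.73% lower. Between PD14 and PD15 there was 1, *Bmp4*, which was lower, against 20.6% of all genes, 10.4% higher and 10.2% lower. The median log2 difference of the 10 genes was 0.02 for PD15 against PD14, 0.14 for PD16 against PD14 and 0.13 for PD16 against PD15, and that of all genes tested was 0.01 in each.

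**Figure D1:**
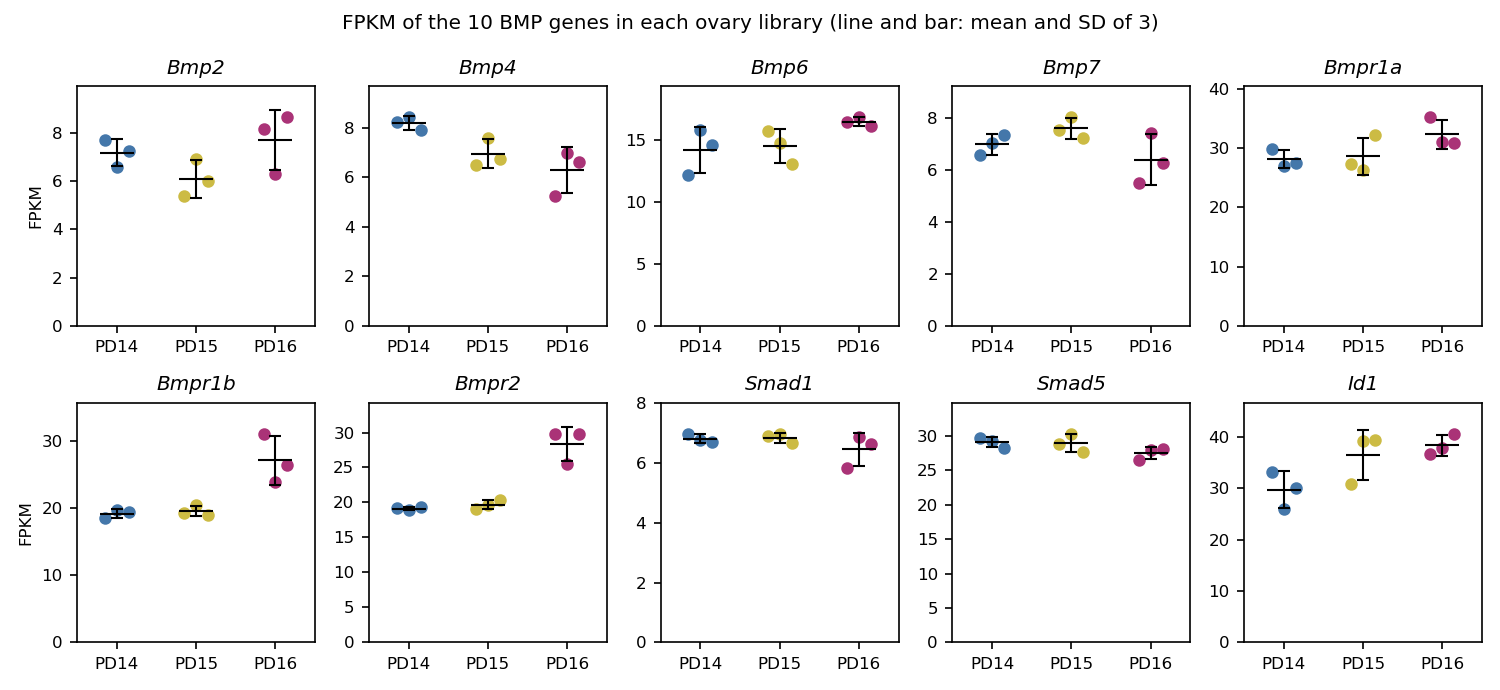
FPKM of the 10 genes in each library by day, with the mean and SD of 3 libraries. *Bmpr1b* and *Bmpr2* at PD16 lie above every library of PD14 and PD15, and *Bmp4* at PD16 lies below every library of PD14.

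BMPR2 is the type II receptor that BMP2, BMP4, BMP6, BMP7 and the oocyte factors BMP15 and GDF9 use. The gene *Bmpr2* (ENSMUSG00000067336) lies at chr1:59763400-59879014 on the plus strand (GRCm38, GENCODE M21), with 13 exons in the transcript of its longest coding sequence. It stood at 19.2, 18.9 and 19.3 FPKM in the PD14 libraries, at 19.0, 19.6 and 20.3 FPKM at PD15 and at 29.8, 25.5 and 29.8 FPKM at PD16. The PD14 and PD15 libraries overlapped within a narrow band, and the lowest PD16 library was above all 6 of them. Means were 19.1 ± 0.193, 19.7 ± 0.656 and 28.4 ± 2.47 FPKM (SD, n = 3 each). On the log2(FPKM + 1) scale *Bmpr2* rose by 0.54 from PD14 to PD16 (SE 0.07, 95% interval 0.39 to 0.69, limma adjusted p = 0.00877) and by 0.50 from PD15 to PD16 (SE 0.07, 95% interval 0.36 to 0.65, limma adjusted p = 0.0213). The difference of PD15 from PD14 was 0.04 (limma adjusted p = 0.837).

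*Bmpr2* kept its call between PD14 and PD16 in all 18 alternative settings, with limma adjusted p from 0.00845 to 0.0364. Without PD16 replicate 1 the difference was 0.51. The call between PD15 and PD16 was lost on leaving out PD15 replicate 1 (limma adjusted p = 0.0828), PD15 replicate 2 (0.0610), PD16 replicate 1 (0.0654) or PD16 replicate 3 (0.0508). Its annotated exons cover 17983 bases, and the trend of level with length was taken over the 14686 tested genes with a length. Per doubling of length its slope on the log2 scale was 0.00544 to 0.00942 in the PD16 libraries and -0.0124 to 0.00338 in those of the earlier days. With this length trend taken out of each library, an alternative added after seeing the data, *Bmpr2* was still higher at PD16 by 0.47 on the log2 scale (limma adjusted p = 0.0124).

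BMPR1B is a type I receptor whose loss leaves female mice infertile. *Bmpr1b* (ENSMUSG00000052430) lies at chr3:141837136-142169425 on the minus strand, with 11 exons in the transcript of its longest coding sequence. It stood at 18.5, 19.7 and 19.4 FPKM at PD14, at 19.4, 20.5 and 19.0 FPKM at PD15 and at 31.1, 23.9 and 26.5 FPKM at PD16. As for *Bmpr2*, the earlier days overlapped and all PD16 libraries were above them, with PD16 replicate 1 the highest. Means were 19.2 ± 0.630, 19.6 ± 0.775 and 27.2 ± 3.67 FPKM (SD, n = 3 each).

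*Bmpr1b* rose by 0.47 on the log2(FPKM + 1) scale from PD14 to PD16 (SE 0.09, 95% interval 0.28 to 0.67, limma adjusted p = 0.0240). The difference of PD16 from PD15 was 0.44 (SE 0.09, 95% interval 0.25 to 0.64) and missed the threshold (limma adjusted p = 0.0593). Of the 18 alternatives, 1 called it, the fit without PD16 replicate 2 (0.53, limma adjusted p = 0.0477). The difference of PD15 from PD14 was 0.03 (limma adjusted p = 0.907). The call between PD14 and PD16 was lost without PD14 replicate 1 (limma adjusted p = 0.0744), PD14 replicate 3 (0.0818) or PD16 replicate 1 (0.0590), and also without a filter (0.0627), with only the 6 libraries of these days (0.0525) and with a replicate block (0.0612). Without PD16 replicate 1 the difference was 0.37. The F test among the 3 days called *Bmpr2* (limma adjusted p = 0.0103) and *Bmpr1b* (0.0344) and no other of the 10 genes, against 3.03% of all genes. On leaving out 1 library this count of 2 was kept only without PD16 replicate 2 and was 1 in the other 8 fits.

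BMPR1A is the other type I receptor of these ligands. *Bmpr1a* (ENSMUSG00000021796, chr14:34410734-34503341, minus strand) was at 29.9, 26.9 and 27.6 FPKM at PD14, at 27.4, 26.3 and 32.2 FPKM at PD15 and at 35.2, 31.0 and 30.8 FPKM at PD16. The PD16 libraries were above those of PD14 but overlapped those of PD15, where replicate 3 was high. The mean was 15.0% higher at PD16 than at PD14, and the log2 difference of 0.19 (SE 0.09, 95% interval from just under 0 to 0.39) did not pass the test (limma adjusted p = 0.220). Without PD16 replicate 1 it was 0.13. An antisense gene, *Gm17110*, shares exon bases with *Bmpr1a* at a mean of 0.536 FPKM, and how the strand entered the counting is not given in the sources used here.

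The balance of the receptors was read as a ratio of FPKM within each library, a comparison added after the values were seen. *Bmpr2* to *Bmpr1a* was 0.641, 0.702 and 0.700 at PD14, 0.694, 0.748 and 0.631 at PD15 and 0.846, 0.822 and 0.965 at PD16. Every PD16 library was above the 6 others, and the log2 ratio was 0.36 higher than at PD14 (exact permutation test, two-sided p = 0.1, the smallest that 3 against 3 libraries allow). *Bmpr1b* to *Bmpr1a* was 0.619, 0.732 and 0.705 at PD14, 0.707, 0.781 and 0.591 at PD15 and 0.884, 0.770 and 0.860 at PD16, which overlapped PD15 but not PD14 (exact permutation p = 0.1 against PD14 and 0.2 against PD15). *Bmpr2* to *Bmpr1b* ran from 0.957 to 1.12 with overlap among all days (exact permutation p = 0.5 for PD16 against PD14). With *Smad5* to *Smad1* these were 4 ratios on 2 contrasts, and this test of 3 against 3 libraries cannot reach a p of 0.05.

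Sequence before RefSeq starts of the receptor genes is shown because *Bmpr2* and *Bmpr1b* passed the test, with *Bmpr1a*, which did not, beside them. Promoter windows of 250 bases before a transcription start came from RefSeq (GRCm38.p6) and matched 7 of the 10 genes with 11 starts, without *Bmp2*, *Bmp7* and *Id1*. They were searched for GGCGCC, a GC-rich element that SMAD1 and SMAD5 are known to bind and its own reverse complement. They were also searched for GTCTG or its reverse complement CAGAC, which hold the SMAD box GTCT or AGAC with 1 more base. GTCT or AGAC without that base was neither searched for nor marked. Both strands were searched, and matches of the motifs can overlap by 1 letter where they adjoin. GGCGCC was found at *Bmpr1a*, *Bmpr2* and the second start of *Smad5*, and 9.59% of 32851 windows of this length hold it. GTCTG or CAGAC was found at *Bmp6*, the first and second starts of *Bmpr1b* and the third start of *Smad5*, and 42.2% of all windows hold it. The lines below give 30 bases around GGCGCC for *Bmpr2* (chr1:59764162-59764191, plus strand) and *Bmpr1a* (chr14:34502727-34502756, minus strand), and the windows of the first (chr3:141982265-141982514) and second (chr3:141931589-141931838) starts of *Bmpr1b*, both on the minus strand. All lie within the GENCODE M21 spans of their genes, which begin farther upstream, and the windows that hold the sites of *Bmpr2* and *Bmpr1a* overlap annotated exons. All run 5′ to 3′ with the motif in capitals.
Bmpr2: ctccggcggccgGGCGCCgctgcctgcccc
Bmpr1a: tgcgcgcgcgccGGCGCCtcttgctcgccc
Bmpr1b, first start: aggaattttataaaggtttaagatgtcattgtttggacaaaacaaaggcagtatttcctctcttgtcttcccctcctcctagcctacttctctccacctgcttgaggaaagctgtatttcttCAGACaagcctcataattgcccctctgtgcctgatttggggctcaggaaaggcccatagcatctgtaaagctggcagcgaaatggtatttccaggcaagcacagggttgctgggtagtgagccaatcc
Bmpr1b, second start: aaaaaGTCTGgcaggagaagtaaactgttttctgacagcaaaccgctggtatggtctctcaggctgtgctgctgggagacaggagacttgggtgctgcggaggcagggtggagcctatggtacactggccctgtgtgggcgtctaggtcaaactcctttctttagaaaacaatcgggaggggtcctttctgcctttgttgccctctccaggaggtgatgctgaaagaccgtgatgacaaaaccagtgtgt
The element of *Bmpr2* begins 105 bases before its start and that of *Bmpr1a* 198 bases before. *Bmpr1b* has 46.8%, 52.8% and 56.4% G and C in its 3 windows, against 64% for *Bmpr2* and 78.8% for *Bmpr1a*. None of the 3 windows of *Bmpr1b* holds GGCGCC.

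**Figure D2:**
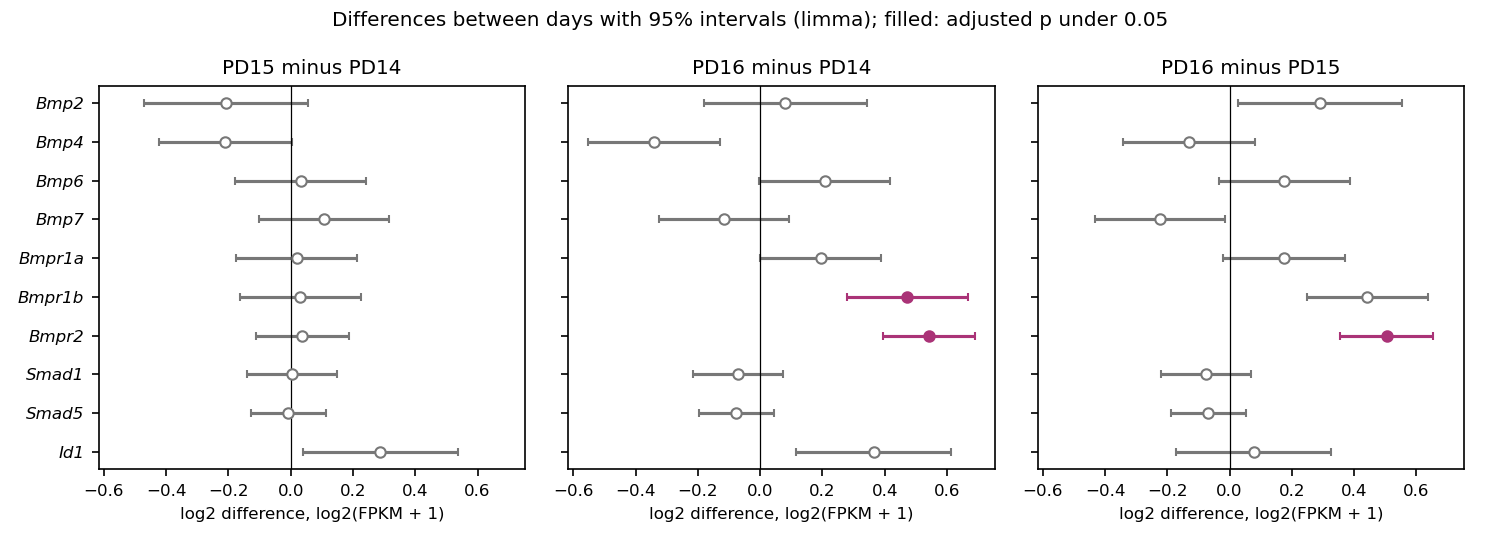
Log2 differences of the 10 genes between days with 95% intervals from limma, ordered by role. *Bmpr2* and *Bmpr1b* lie farthest above 0 for PD16 against PD14 (0.54 and 0.47), and *Bmp4* lies farthest below it (-0.34).

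Among the ligands, none passed the test on any contrast, and they did not move together. *Bmp4* lay lower at PD16 than at PD14, *Bmp6* lay slightly higher, and *Bmp2* and *Bmp7* differed mostly between PD15 and PD16, in opposite directions. The median log2 difference of the 4 ligands was -0.02 for PD16 against PD14, that of the 3 receptors was 0.47 and that of all genes 0.01.

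*Bmp4* (ENSMUSG00000021835, chr14:46383520-46390669, minus strand) encodes a ligand known to come from theca and stroma. It was at 8.24, 8.41 and 7.88 FPKM at PD14, at 6.50, 7.60 and 6.75 FPKM at PD15 and at 5.25, 6.99 and 6.61 FPKM at PD16. Every later library was below the 3 libraries of PD14, while PD15 and PD16 overlapped. Means were 8.18 ± 0.271, 6.95 ± 0.575 and 6.28 ± 0.917 FPKM (SD, n = 3 each), and the PD16 mean was 23.2% below that of PD14. The log2 difference of PD16 from PD14 was -0.34 (SE 0.09, 95% interval -0.55 to -0.13) and did not pass the test (limma adjusted p = 0.0744). Over the 18 alternatives the adjusted p of limma stayed between 0.0741 and 0.172, and without PD16 replicate 1, the lowest library, the difference was -0.23. PD15 differed from PD14 by -0.21 (limma adjusted p = 0.345). Levels of markers of other cells are given beside it. The summed level of the 6 theca and interstitial markers was 1559 to 2191 FPKM at PD14, 1134 to 1716 at PD15 and 1166 to 1581 at PD16. *Hsd3b1* alone made up 1062 to 2091 FPKM of it in the libraries. The log2 difference of PD16 from PD14 was below 0 for 4 of the 6 and above 0 for 2, with a median of -0.25. *Cyp11a1* and *Lhcgr* had lower means at PD16 (32.8 and 9.78 FPKM) than at PD14 (46.8 and 14.4 FPKM). *Cyp17a1* and *Star* had higher means at PD16 (37.1 and 5.58 FPKM) than at PD14 (28.9 and 3.89 FPKM). The summed level of the 5 stromal markers was 366 to 439, 321 to 379 and 369 to 393 FPKM. None of these 11 markers was called on any contrast or was at 0 in a library, and their part in the values of *Bmp4* was not tested.

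*Bmp6* (ENSMUSG00000039004, chr13:38345107-38500302, plus strand) encodes a ligand of oocytes and granulosa cells and had the highest level of the 4. It was at 12.2, 15.8 and 14.6 FPKM at PD14, at 15.7, 14.8 and 13.1 FPKM at PD15 and at 16.5, 16.9 and 16.1 FPKM at PD16. The PD16 libraries lay close together and just above the highest of the earlier days. The log2 difference of PD16 was 0.21 from PD14 (limma adjusted p = 0.225) and 0.18 from PD15 (limma adjusted p = 0.439). The former was 0.11 without PD14 replicate 1, the low library of its day, and the latter 0.11 without PD15 replicate 3. Exons of *Txndc5* lie on the opposite strand of *Bmp6* exons at a mean of 114 FPKM, so that without strand in the counting reads of the more abundant gene could be given to *Bmp6*.

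*Bmp2* (ENSMUSG00000027358, chr2:133552159-133562885, plus strand), a ligand of granulosa cells, was at 7.68, 6.59 and 7.25 FPKM at PD14, at 5.37, 6.91 and 5.99 FPKM at PD15 and at 8.17, 6.28 and 8.64 FPKM at PD16. All 3 days overlapped. The difference of PD16 from PD15 was 0.29 on the log2 scale (SE 0.12, 95% interval 0.03 to 0.55, limma adjusted p = 0.299), and that of PD16 from PD14 was 0.08 (limma adjusted p = 0.723). The latter ran from 0.00 without PD16 replicate 3 to 0.20 without PD16 replicate 2, and it also moved by over 1.5 times without PD14 replicate 1 (0.13), PD14 replicate 2 (0.03) or PD16 replicate 1 (0.04).

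*Bmp7* (ENSMUSG00000008999, chr2:172868012-172940321, minus strand), a ligand known from theca cells, was at 6.55, 7.02 and 7.34 FPKM at PD14, at 7.52, 8.01 and 7.22 FPKM at PD15 and at 5.48, 7.42 and 6.26 FPKM at PD16. The mean was highest at PD15, and the libraries of all days overlapped. PD16 differed from PD15 by -0.22 (95% interval -0.43 to -0.01, limma adjusted p = 0.315) and from PD14 by -0.12 (limma adjusted p = 0.489). These differences rest on single libraries: without PD16 replicate 1 they were -0.13 and -0.03, and without PD16 replicate 2 they were -0.32 and -0.22.

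*Smad1* and *Smad5* differed little between days. *Smad5* (ENSMUSG00000021540, chr13:56703010-56742377, plus strand) was at 29.7, 29.3 and 28.3 FPKM at PD14, at 28.8, 30.3 and 27.7 FPKM at PD15 and at 26.6, 28.0 and 28.1 FPKM at PD16. The PD16 libraries were just under those of PD14, by -0.08 on the log2 scale with a 95% interval of -0.20 to 0.04 (limma adjusted p = 0.431). *Smad1* (ENSMUSG00000031681, chr8:79338395-79399518, minus strand) was at 6.97, 6.75 and 6.69 FPKM at PD14, at 6.89, 6.95 and 6.64 FPKM at PD15 and at 5.82, 6.87 and 6.64 FPKM at PD16. PD16 replicate 1 was the low library, the other 8 lay close together, and PD16 differed from PD14 by -0.07 with a 95% interval of -0.21 to 0.07 (limma adjusted p = 0.549). Without PD16 replicate 1 the difference from PD14 was -0.01 for *Smad1* and -0.05 for *Smad5*. *Smad5* was 4.08 to 4.57 times as abundant as *Smad1* in the 9 libraries. The coefficient of variation over all libraries was 3.98% for *Smad5* and 5.25% for *Smad1*, the smallest of the 10 genes, against 20.9% for *Bmpr2* and 19.6% for *Bmpr1b*.

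*Id1* (ENSMUSG00000042745, chr2:152736251-152737410, plus strand) encodes an inhibitor of helix-loop-helix factors and is a direct target of SMAD1 and SMAD5. It was at 33.1, 26.0 and 29.96 FPKM at PD14, at 30.9, 39.1 and 39.5 FPKM at PD15 and at 36.6, 37.9 and 40.6 FPKM at PD16. All PD16 libraries and 2 of the 3 PD15 libraries were above the highest of PD14. Means were 29.7 ± 3.59, 36.5 ± 4.84 and 38.4 ± 2.05 FPKM (SD, n = 3 each), 29.2% higher at PD16 than at PD14. The log2 difference of PD16 from PD14 was 0.36 (SE 0.11, 95% interval 0.12 to 0.61) and did not pass the test (limma adjusted p = 0.0935, and 0.0667 to 0.204 over the 18 alternatives). That of PD15 from PD14 was 0.29 (limma adjusted p = 0.273), and that of PD16 from PD15 was 0.08 (limma adjusted p = 0.821). The last of these turned to -0.03 without PD15 replicate 1 and was 0.13 without PD15 replicate 2, 0.14 without PD15 replicate 3 and 0.04 without PD16 replicate 3.

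**Figure D3:**
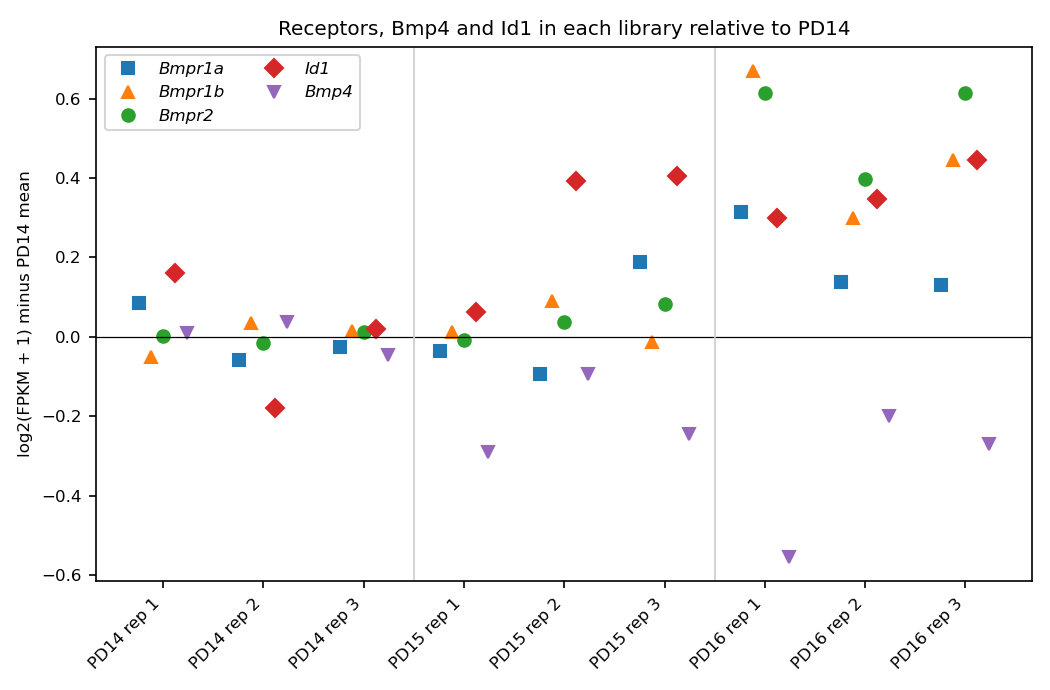
Log2(FPKM + 1) of the receptors, *Bmp4* and *Id1* in each library minus the PD14 mean of the gene. *Bmpr2* and *Bmpr1b* lie near 0 in the PD14 and PD15 libraries and above it at PD16, and *Id1* lies near 0 in PD15 replicate 1 and higher in the other PD15 libraries.

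By median FPKM over the 9 libraries the order was *Id1* (36.6), *Bmpr1a* (29.9), *Smad5* (28.3), *Bmpr1b* (19.7), *Bmpr2* (19.6), *Bmp6* (15.7), *Bmp7* (7.22), *Bmp4* (6.99), *Bmp2* (6.91) and *Smad1* (6.75). Each neighbour in this order overlapped the next in range, except that every *Bmpr2* value was above every *Bmp6* value and every *Bmp6* value above every *Bmp7* value. The order within the lowest 4 changed with the day: at PD14 every *Bmp4* library was above those of *Bmp2*, *Bmp7* and *Smad1*, and at PD15 every *Bmp7* library was above those of *Bmp2* and *Smad1*. Among the 10 genes, levels of the 3 receptors were thus above those of the 4 ligands in all libraries. Outside the 10 genes, the ligands *Bmp15* (47.6 to 72.0 FPKM), *Amh* (168 to 261 FPKM) and *Gdf9* (206 to 274 FPKM) were above every value of these receptors, and the other ligands were not.

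**Figure D4:**
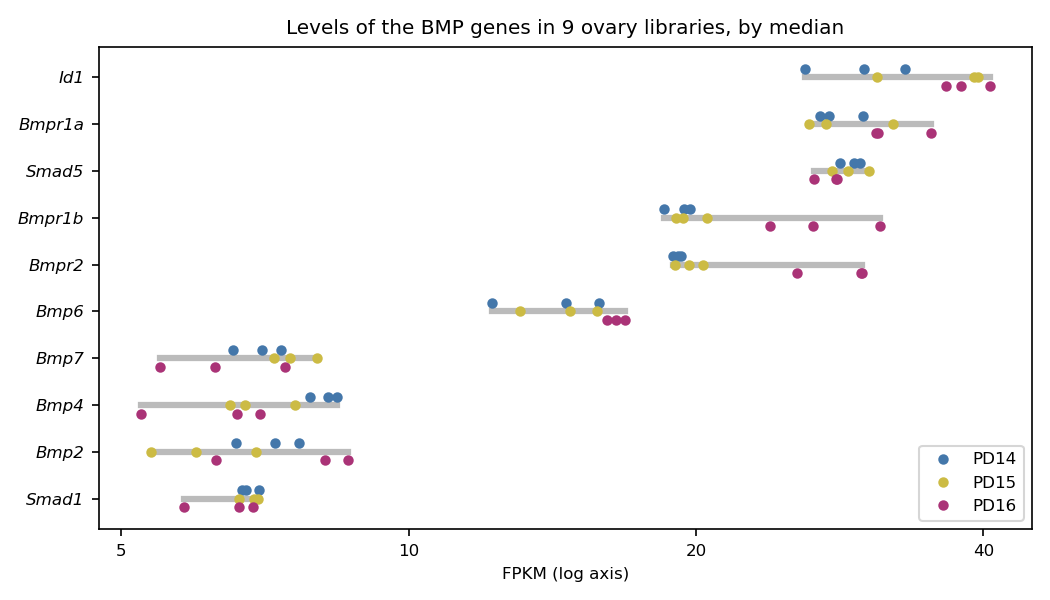
FPKM of the 10 genes in the 9 libraries, ordered by their median on a log axis. Only *Bmpr2* against *Bmp6* and *Bmp6* against *Bmp7* are neighbours whose ranges do not overlap.

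The genes most like *Bmpr2*, the gene with the lowest F test p of the 10, were found by Pearson's r of log2(FPKM + 1) over the 9 libraries among the 15494 other genes tested. They were *Gm13944* (r = 0.99), listed as an antisense gene and above the filter only through its mean of 1.77 FPKM at PD16, *Cd36* (r = 0.98), a scavenger receptor that takes up fatty acids, and *Slc25a24* (r = 0.98), a mitochondrial carrier. *Gm13944* was at 0.552 to 0.664 FPKM at PD14 and 1.29 to 2.17 FPKM at PD16, *Cd36* at 6.75 to 7.44 and 9.51 to 11.6 FPKM, and *Slc25a24* at 16.3 and 18.5 to 19.9 FPKM. In all, 118 genes had an r above 0.9, *Bmpr1b* was the 21st with 0.96, and *Bmpr1a* was the 819th with 0.74. The libraries share their day, so that r describes the pattern over 3 days more than 9 separate points.

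The other genes of the pathway were taken from a list of 55, of which 38 passed the filter. Between PD14 and PD16, 5 of the 38 rose (*Amh*, *Bmp15*, *Chrdl1*, *Htra1* and *Id3*) and 0 fell, against 2.36% of all genes higher and 1.89% lower. Without PD16 replicate 1 none of the 38 was called, 0 in place of 5, while the calls over all genes also fell, to 92 from 659. Between PD14 and PD15, 0 rose and 1 fell (*Acvrl1*), against 0.336% and 0.342%. Between PD15 and PD16 limma called 0 of the 38, against 0.729% of all genes. Under an unadjusted p of 0.05 were 11 of the 38 for PD15 against PD14, 18 for PD16 against PD14 and 9 for PD16 against PD15, against 14.7%, 22.8% and 14.1% of all genes. Their median log2 difference was 0.06, 0.12 and 0.07 for PD15 against PD14, PD16 against PD14 and PD16 against PD15.

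Of the 5 other ligands tested, *Amh* and *Bmp15* rose by PD16, against 2.36% of all genes. *Bmp15*, a growth factor of the oocyte, was at 48.2, 47.6 and 53.1 FPKM at PD14, at 61.0, 63.8 and 72.0 FPKM at PD15 and at 69.2, 66.2 and 60.8 FPKM at PD16. The libraries of both later days were above those of PD14 and overlapped each other. The log2 difference of PD16 from PD14 was 0.39 (limma adjusted p = 0.0331), and that of PD15 from PD14, also 0.39, did not pass the test (limma adjusted p = 0.0745). The latter was called only with the length trend removed (limma adjusted p = 0.0419). *Amh*, made by granulosa cells of growing follicles, was at 186, 175 and 168 FPKM at PD14, at 261, 243 and 222 FPKM at PD15 and at 256, 235 and 244 FPKM at PD16, a difference of 0.47 between PD16 and PD14 (limma adjusted p = 0.0223). Here too PD15 and PD16 overlapped above PD14, and the difference of PD15 from PD14, 0.45, just missed the threshold (limma adjusted p = 0.0522). It was called with median-ratio factors (limma adjusted p = 0.0477) and with no intensity trend (0.0489). The oocyte ligand *Gdf9* averaged 242 ± 30.6 FPKM at PD14 and 212 ± 7.68 FPKM at PD16 (limma adjusted p = 0.351). The call of *Bmp15* was lost without any of PD14 replicates 1, 2 and 3, PD15 replicate 2, PD16 replicate 1 or PD16 replicate 2, and that of *Amh* without PD14 replicate 1, PD14 replicate 3 or PD16 replicate 1 (limma adjusted p up to 0.113 and 0.0848). The summed oocyte markers were 871 to 1089 FPKM at PD14, 1142 to 1232 at PD15 and 807 to 873 at PD16, with *Nlrp5* of the 6 called higher at PD15 than at PD14, against 0.336% of all genes, and *Zp2* and *Nlrp5* called lower at PD16 than at PD15, against 0.297%. The summed granulosa markers were 2485 to 3081, 2321 to 2723 and 2526 to 2968 FPKM, of which *Inha* alone made up 1780 to 2629. Of these 6 granulosa markers, 2 had a log2 difference above 0 and 4 below 0 for PD15 against PD14. For PD16 against PD14 3 were above 0 and 3 below, and for PD16 against PD15 4 were above and 2 below. *Amh* itself is among the granulosa markers and *Gdf9* among those of the oocyte, and the part of cell numbers in these values was not tested.

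Of the 9 other receptors tested, none was called between PD16 and PD14, against 4.25% of all genes. *Acvrl1*, a type I receptor of vessels, was at 5.91, 6.42 and 6.01 FPKM at PD14, at 4.49, 4.58 and 4.84 FPKM at PD15 and at 5.92, 5.39 and 5.40 FPKM at PD16. It fell at PD15 by 0.34 on the log2 scale (limma adjusted p = 0.0487), a call lost on leaving out any 1 of the 9 libraries (limma adjusted p up to 0.166 over the alternatives). Summed endothelial markers were 61.7 to 65.99 FPKM at PD14, 57.5 to 59.6 at PD15 and 54.8 to 57.6 at PD16. Those of the 4 blood and immune markers were 101 to 132, 45.2 to 60.7 and 59.2 to 112 FPKM, with *Hba-a1* lower at PD15 than at PD14 by 1.35 on the log2 scale (limma adjusted p = 0.0381), and the part of either was not tested. The receptor of AMH, *Amhr2*, averaged 116 ± 8.98, 102 ± 4.86 and 93.9 ± 7.47 FPKM (limma adjusted p = 0.0732 for PD16 against PD14), and the co-receptor *Eng* 20.3 ± 1.13, 19.2 ± 1.28 and 22.1 ± 1.26 FPKM (limma adjusted p = 0.331).

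None of the 7 other SMADs and their regulators was called on any contrast. Of all genes, 0.678% were called for PD15 against PD14, 4.25% for PD16 against PD14 and 0.729% for PD16 against PD15. *Smad4*, the partner of all receptor SMADs, averaged 36.7 ± 0.274 FPKM at PD14, 39.7 ± 1.52 at PD15 and 41.3 ± 2.01 at PD16, a log2 difference of 0.17 (limma adjusted p = 0.118). *Smurf2*, a ubiquitin ligase that removes SMADs and receptors, averaged 14.9 ± 0.463, 15.7 ± 0.818 and 16.6 ± 0.806 FPKM (limma adjusted p = 0.184). *Smad9*, the third SMAD of BMP receptors, was under the filter and not tested. It averaged 0.453 ± 0.0446, 0.544 ± 0.122 and 0.812 ± 0.161 FPKM (SD, n = 3 each), and its PD16 libraries were above all others.

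Of the 11 antagonists tested, 2 rose by PD16, against 2.36% of all genes, and both act outside the cell. *Chrdl1*, a secreted protein that binds BMP4 and keeps it from its receptors, was at 2.04, 2.48 and 1.94 FPKM at PD14, at 3.40, 3.14 and 3.20 FPKM at PD15 and at 3.94, 4.28 and 3.43 FPKM at PD16. The days did not overlap, and the log2 difference of PD16 from PD14 was 0.63 (SE 0.09, limma adjusted p = 0.0125). *Htra1*, a secreted protease that binds ligands of the family, was at 120, 158 and 149 FPKM at PD14, at 164, 178 and 151 FPKM at PD15 and at 228, 215 and 199 FPKM at PD16, where all libraries were above the others (log2 difference 0.59, SE 0.11, limma adjusted p = 0.0282). The call of *Chrdl1* was lost without PD16 replicate 1 (limma adjusted p = 0.0530), and that of *Htra1* without PD14 replicate 1, PD14 replicate 3, PD16 replicate 1 or PD16 replicate 2 (up to 0.0942). *Fst*, follistatin, which binds activins and BMPs, averaged 116 ± 10.1 FPKM at PD14, 108 ± 7.53 at PD15 and 144 ± 9.46 at PD16 and missed the threshold (limma adjusted p = 0.0814 against PD14). *Grem1*, a secreted antagonist of BMP2, BMP4 and BMP7, was at 7.48, 12.3 and 9.66 FPKM at PD14, at 2.60, 4.01 and 5.64 FPKM at PD15 and at 11.9, 4.86 and 8.16 FPKM at PD16. Its PD15 libraries were below those of PD14 without overlap, with a log2 difference of -1.11 (SE 0.30) that did not pass the test (limma adjusted p = 0.143).

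Of the 6 other targets tested, *Id3* rose by PD16, against 2.36% of all genes. *Id3*, a relative of *Id1*, was at 55.5, 47.1 and 49.7 FPKM at PD14, at 66.1, 83.0 and 72.2 FPKM at PD15 and at 84.2, 71.0 and 88.2 FPKM at PD16. Every later library was above PD14, and PD16 was higher by 0.66 on the log2 scale (SE 0.11, limma adjusted p = 0.0177), a call lost without PD14 replicate 3 or PD16 replicate 1 (limma adjusted p up to 0.0696). *Id2* averaged 53.2 ± 7.14, 70.7 ± 11.7 and 64.5 ± 1.85 FPKM (limma adjusted p = 0.219 for PD16 against PD14). For PD15 against PD14 neither passed the test (limma adjusted p = 0.0750 for *Id3* and 0.186 for *Id2*), and the libraries of these days overlapped for *Id2*.

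**Figure D5:**
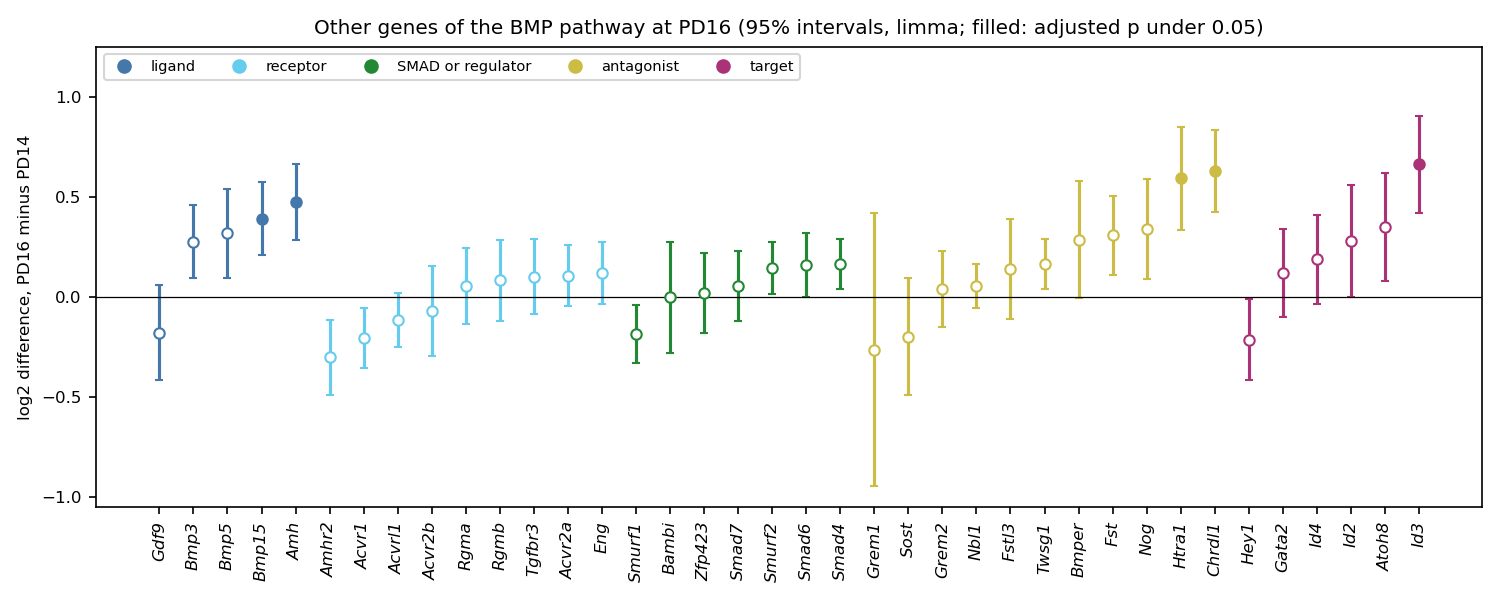
Log2 difference of PD16 from PD14 for the 38 other genes of the pathway that were tested, with 95% intervals from limma, by role. Filled points are the 5 with an adjusted p under 0.05, led by *Id3* (0.66), *Chrdl1* (0.63) and *Htra1* (0.59).

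Some markers of other cell types were also called between PD14 and PD16, against 2.36% of all genes higher and 1.89% lower. The surface epithelium markers *Krt8*, *Krt18* and *Krt19* fell (3 of 4, summed level 51.2 to 58.2 FPKM at PD14 and 39.2 to 43.4 at PD16), as did *Tie1* of vessels (1 of 5). *Cnn1* of smooth muscle rose (1 of 4, summed level 277 to 315 and 302 to 404 FPKM), and of the 6 granulosa markers *Amh* rose and *Cyp19a1* fell. Between PD15 and PD16, over which *Bmpr2* also rose, 5 of the 6 oocyte markers had lower libraries without overlap, against 9.73% of all genes. Of these markers *Zp2* and *Nlrp5* were called lower, against 0.297% of all genes. The part of these markers in the rise of *Bmpr2* and *Bmpr1b* was not tested.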

How the data were processed

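The authors deposited FPKM per gene in 1 table for each of the 9 libraries (total RNA of ovaries), and no counts were used. The submitters' processing notes name HISAT2 2.0.5 and mm10. The counting tool, the annotation and the use of strand are not given in the sources used here. With GENCODE M21 exon lengths, 94.9% to 95.5% of the low values in a library came out as whole numbers of fragments within 0.02 of a fragment, which gave depths of 20369006 to 28730960 mapped fragments.

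Libraries were grouped by day from their labels. The main test was limma 3.58.1 in R 4.3.3 with an intensity trend on log2(FPKM + 1), all 9 libraries in 1 fit, over the 15495 genes whose mean FPKM exceeded 1 on some day, with Benjamini-Hochberg adjustment over all of them and a threshold of 0.05. A log2 difference on this scale understates the change of low genes. Ratios and correlations were computed in Python 3.11.15. The script was tested on simulated data. The alternatives were the pseudocount, the filter, median-ratio scaling, no trend, the libraries of 2 days alone, a replicate block, leaving out each library and, added after seeing the data, removal of the length trend.

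Named were all 10 genes, the other pathway genes called by any test and otherwise the 2 with the highest mean of each role, the 3 genes most like the leading member, and the first 2 of each marker list. The genes and lists were chosen with earlier results of these data known. *Krt8*, *Tie1*, *Cnn1*, *Cyp19a1*, *Nlrp5*, *Hsd3b1*, *Star*, *Lhcgr*, *Inha*, *Grem1*, *Smad9* and the genes overlapping members were named after their values were seen.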

Additional observations from a re-analysis of the deposited data

How the results depend on the processing

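Of the 10 genes, *Bmpr2* was called between PD14 and PD16 in all 18 alternatives and *Bmpr1b* in 12, and the differences that were called kept their sign in each. The members called between PD14 and PD16 were 1 without a filter, with the 6 libraries alone and with the replicate block, and 1 to 2 on leaving out a library. Between PD15 and PD16 they were 0 to 2 on leaving out a library. By the F test they were 1 without a filter, with a mean FPKM above 0.1 and with the replicate block, and 1 to 2 on leaving out a library, 1 in 8 of the 9 fits. The other pathway genes called between PD14 and PD15 were 0 with a pseudocount of 0.1, without a filter, with a mean above 0.1, with the 6 libraries alone, with the replicate block and on leaving out any library, and 2 with median-ratio factors and with the length trend removed, which was added after seeing the data. Between PD14 and PD16 they were 1 without a filter, 2 with the replicate block and 0 to 5 on leaving out a library. The calls of *Bmp15*, *Htra1* and *Id3* were lost without a filter (limma adjusted p = 0.0786, 0.0777 and 0.0523) and with the replicate block (0.0749, 0.0576 and 0.0511), that of *Amh* without a filter (0.0623) and that of *Htra1* also with the 6 libraries alone (0.0524). Over all genes, the calls without a filter, with a mean above 0.1 and with the replicate block were 29, 42 and 24 for PD15 against PD14, 172, 426 and 227 for PD16 against PD14, 24, 50 and 56 for PD16 against PD15 and 95, 228 and 127 for the F test, against 105, 659, 113 and 469 as reported. With the 6 libraries alone they were 47 for PD15 against PD14 and 320 for PD16 against PD14. On leaving out a library they were 3 to 92, 92 to 660, 14 to 125 and 100 to 354. More genes are tested without a filter and fewer libraries enter on leaving some out, and otherwise the cause was not tested.

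Same-numbered libraries of different days share only a number: their deviations from the day means correlated across genes between -0.21 and 0.16 over 9 pairs, and 2 of 9 libraries correlated best with their own number. With the replicate block *Bmpr1b* was not called between PD14 and PD16 (limma adjusted p = 0.0612), as without a filter (0.0627) and with the 6 libraries alone (0.0525). Counting error alone, as a coefficient of variation, was at most 4.54% in a library for *Bmp2* and 1.19% for *Bmpr2*. It was at most 5.97% for *Bmp4*, for which whole fragments were not recovered.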
